A study of Mus musculus with 4 samples.

Results

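The genes described here carry fatty acids into heart muscle and activate them to acyl-CoA: Cd36, Fabp3, Lpl, Gpihbp1, Vldlr, Slc27a1 and 4 long-chain acyl-CoA synthetase genes, Acsl3, Acsl4, Acsl5 and Acsl6. All probe sets whose only gene symbol is one of these 10 were taken, which gave 25 probe sets among 45037 tested, and 10 genes among 18193. The RefSeq gene table (GRCm38.p6) places Acsl3 on chromosome 1, Fabp3 on 4, Cd36 on 5, Lpl and Slc27a1 on 8, Acsl6 on 11, Gpihbp1 on 15, Vldlr and Acsl5 on 19 and Acsl4 on X. All were measured on Affymetrix arrays in hearts of C57B6 mice aged 3.6 months at baseline, with no treatment given. The 2 knock-in arrays hold hearts in which serine 21 of the kinase GSK-3α is replaced by alanine (S21A), and the 2 wild-type arrays hold hearts without that change. Nothing in the labels says that the arrays of a group come from separate animals, so n counts arrays and the spread may be technical. Values are RMA signals on the log2 scale, where a difference of 1 is a doubling, and every difference is knock-in minus wild-type.

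The heart takes most of its energy from fatty acids, which reach it as free acids bound to albumin or as triglyceride in lipoproteins. Lipoprotein lipase, carried to the capillary surface by GPIHBP1 and helped by lipoprotein receptors, frees fatty acids from that triglyceride. CD36 and the transport protein FATP1 pass them into the cell, FABP3 carries them through the cytosol, and acyl-CoA synthetases of the ACSL family attach coenzyme A, the step that commits them to oxidation, storage or membrane lipids. Serine 21 is the site at which Akt and related kinases inhibit GSK-3α, so the S21A kinase escapes this inhibition.

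The stretches below are the promoters of Acsl4, shown because its brightest probe set had the largest difference among the members, and of Cd36 and Fabp3, which encode the chief fatty acid receptor and the cytosolic carrier of heart muscle. Each is the 150 bases before a start listed in RefSeq (GRCm38.p6), written 5′ to 3′ on the gene's strand, with GC boxes (GGGCGG) and CCAAT boxes (CCAAT) of either strand in capitals. The Acsl4 stretch lies on the minus strand at chrX:142390536-142390685, the Cd36 stretch on the minus strand at chr5:17835897-17836046 and the Fabp3 stretch on the plus strand at chr4:130308588-130308737.
Acsl4: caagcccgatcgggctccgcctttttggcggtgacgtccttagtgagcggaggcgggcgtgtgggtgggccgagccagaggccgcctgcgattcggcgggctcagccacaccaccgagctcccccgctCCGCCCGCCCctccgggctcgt
Cd36: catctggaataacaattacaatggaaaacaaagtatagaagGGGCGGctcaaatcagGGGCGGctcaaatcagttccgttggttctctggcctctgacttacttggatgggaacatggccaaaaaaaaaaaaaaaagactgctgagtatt
Fabp3: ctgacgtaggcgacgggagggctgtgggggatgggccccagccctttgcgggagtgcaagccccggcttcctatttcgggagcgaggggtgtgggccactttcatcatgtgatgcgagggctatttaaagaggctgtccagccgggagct
In these stretches Acsl4 had 2 overlapping GC boxes and Cd36 had 2 separate ones, whereas Fabp3 had no box of either kind. The stretches differed in composition, with G or C at 73.3% of bases for Acsl4, 42% for Cd36 and 63.3% for Fabp3. The full windows run from 250 bases before to 50 bases after each start, and 8 of the 10 genes had 13 of them. Lpl and Gpihbp1 had none. A GC box was in 9 of the 13, against 35.7% of all 32851 windows in the table, and a CCAAT box in 8, against 37.4%. Some of the 13 are windows of one gene and so are not independent. By gene, each kind of box was in 6 of the 8. None of the 13 held the direct repeat AGGTCANAGGTCA, a spelling of the element bound by PPAR receptors (0.0396% of all windows), the muscle element CTANNNNTAG of MEF2 factors (3.69%), the forkhead element GTAAACA (3.65%) or the TATA box TATAAA (13.6%). Both strands were searched, and a match or its absence describes these letters only.

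Arrays had medians between 6.14 and 6.23. Wild-type replicate 1 stood apart from the knock-in arrays: over the 25 member probe sets, the SD of the log2 difference from it was 0.31 for each knock-in array, against 0.17 and 0.21 from wild-type replicate 2, 0.16 between the knock-in arrays and 0.22 between the wild-type arrays. Gsk3a itself read 10.62 and 10.80 in knock-in hearts, against 11.16 and 11.08 in wild-type hearts, and did not pass the test (limma adjusted p = 0.458). The substitution need not alter the transcript, so this is a weak check of the labels. The label heart was set against 12 cardiomyocyte markers, all measured and bright, with array medians of 14.34 to 14.44 in knock-in hearts and 14.33 to 14.36 in wild-type hearts. In bulk tissue, fewer cells of a type and less RNA per cell cannot be told apart.

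None of the 10 member genes passed the test. Acsl1 and Slc27a6, also genes of this pathway, are not analysed here, so the members do not cover all of uptake and activation. By each gene's brightest probe set 7 of 10 were higher in the knock-in hearts and 3 lower, with differences from −0.14 for Gpihbp1 to 0.65 for Acsl4 and a median of 0.10. The median over all 18193 genes was −0.01, and 0.04 over genes with a mean signal of at least 6. Among these brightest probe sets the largest differences were those of 2 synthetase genes, Acsl4 and Acsl6, at 0.65 and 0.45. The brightest probe sets of the other 8 genes differed by −0.14 to 0.13, with 95% intervals between −0.41 and 0.39, that is, 0.75-fold to 1.31-fold. Their dimmer probe sets had a wider range, from −0.45 for Fabp3 to 0.35 for Slc27a1, with intervals from −0.77 to 0.74, or 0.59-fold to 1.67-fold.

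Limma, adjusted over all 45037 probe sets with a threshold of 0.05, called 0 of the 25 member probe sets, against 0.00666% of all probe sets higher and 0% lower. Unadjusted p-values under 0.05 came from 2 higher member probe sets, of Acsl4 and of Acsl6, and 1 lower one, of Fabp3. That is 8% higher and 4% lower, against 5.07% and 5.62% of all probe sets, so both shares of probe sets are near the background. By brightest probe set, 20% of the 10 genes were higher and 0% lower, against 5.45% and 4.76% of all genes. That gene share rests on Acsl4 and Acsl6 alone. The groups did not overlap for 11 member probe sets that were higher and 4 that were lower, or 44% and 16%, against 18.5% and 26.7% of all probe sets. This background was not matched for brightness, and 20 of the 25 member probe sets had a mean of at least 6. The median difference was −0.04 over all probe sets and 0.03 over those with a mean of at least 6. Probe sets of one gene share a target gene, and which of its transcripts each reads is not given in the sources used here, so they are not counted as independent. Of the genes with several probe sets, 6 of 8 had them on both sides of 0. The like share over all genes was not computed, so this count is not taken as particular to the members.

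**Figure D1:**
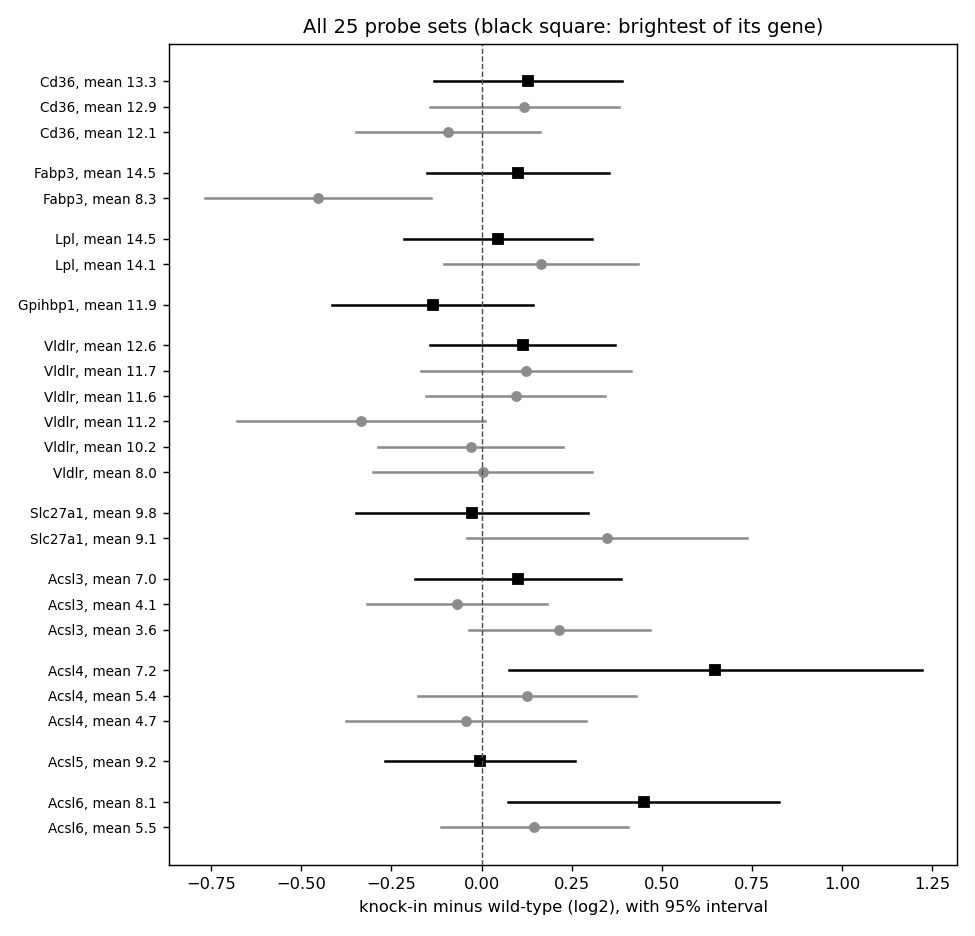
Difference between knock-in and wild-type hearts (log2, x axis) for all 25 member probe sets, with 95% intervals as lines, 2 arrays per group. Each row is named by its gene and its mean signal over the 4 arrays, and black squares mark the brightest probe set of a gene. The brightest probe sets of Acsl4 (0.65) and Acsl6 (0.45) and the dimmer one of Fabp3 (−0.45) are those whose intervals leave out 0.

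At the capillary wall, the brightest probe sets of the genes for freeing fatty acids from lipoproteins differed by 0.05 for Lpl, −0.14 for Gpihbp1 and 0.11 for Vldlr, and 1 dimmer probe set of Vldlr by −0.33. Lpl encodes lipoprotein lipase, made by cardiomyocytes and adipocytes. Its brightest probe set read 14.54 and 14.41 in knock-in hearts, against 14.43 and 14.43 in wild-type hearts. The groups overlapped, with a difference of 0.05 (95% interval −0.22 to 0.31, limma adjusted p = 0.884). The second Lpl probe set read 14.24 and 14.11 in knock-in hearts, against 13.96 and 14.05 in wild-type hearts, a difference of 0.17 (−0.10 to 0.44) with no overlap. Both are near the highest signal in the table, 15.09, and compression of signals near that end was not tested.

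Gpihbp1 encodes the anchor that moves the lipase across capillary endothelial cells and holds it at their surface. Its only probe set read 11.726 and 11.859 in knock-in hearts, against 11.999 and 11.857 in wild-type hearts. Wild-type replicate 1 was the highest array, and knock-in replicate 2 and wild-type replicate 2 read alike, so the groups overlapped. The difference was −0.14 (95% interval −0.41 to 0.14, limma adjusted p = 0.642), and −0.06 without wild-type replicate 1. Endothelial markers had a median difference of 0.16, as given with the marker lists.

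Vldlr encodes the very low density lipoprotein receptor, which binds triglyceride-rich particles and is abundant in heart. The brightest of its probe sets read 12.68 and 12.68 in knock-in hearts, against 12.62 and 12.52 in wild-type hearts. The groups did not overlap, and the difference was 0.11 (95% interval −0.14 to 0.37, limma adjusted p = 0.671). Of its 5 other probe sets, those with means of 11.7 and 11.6 differed by 0.12 and 0.09, close to the brightest one. The probe set with a mean of 11.2 went the other way, at 10.85 and 11.20 in knock-in hearts against 11.32 and 11.41 in wild-type hearts. Its difference was −0.33 (−0.68 to 0.01), and −0.16 without knock-in replicate 1. The remaining 2 differed by −0.03 and 0.00.

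For fatty acid entry and carriage, the brightest probe sets differed by 0.13 or less in size, and dimmer probe sets of Slc27a1 and Fabp3 by 0.35 and −0.45. Cd36 encodes the scavenger receptor that takes up long-chain fatty acids in cardiomyocytes and capillary endothelium. Its brightest probe set read 13.43 and 13.33 in knock-in hearts, against 13.29 and 13.22 in wild-type hearts. Both knock-in arrays were above both wild-type arrays, by 0.13 on average (95% interval −0.13 to 0.39, limma adjusted p = 0.636). The probe set next in brightness read 13.03 and 12.89 in knock-in hearts, against 12.85 and 12.84 in wild-type hearts, a difference of 0.12. The dimmest of the 3 read 12.13 and 12.04 in knock-in hearts, against 12.20 and 12.16 in wild-type hearts, a difference of −0.09. In that probe set both knock-in arrays were the lower ones, so the 3 readings of Cd36 do not share a direction.

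Slc27a1 encodes FATP1, a transport protein of the plasma membrane that also has acyl-CoA synthetase activity. The brighter of its probe sets read 9.67 and 9.81 in knock-in hearts, against 9.91 and 9.62 in wild-type hearts. The wild-type arrays spanned the knock-in ones, with a difference of −0.03 (95% interval −0.35 to 0.30, limma adjusted p = 0.951). The other probe set read 9.14 and 9.42 in knock-in hearts, against 8.76 and 9.11 in wild-type hearts. There wild-type replicate 1 was the lowest array, the groups did not overlap and the difference was 0.35 (−0.04 to 0.74, limma adjusted p = 0.477), or 0.17 without wild-type replicate 1.

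Fabp3 encodes the fatty acid binding protein of heart and skeletal muscle. Its main probe set read 14.57 and 14.53 in knock-in hearts, against 14.49 and 14.42 in wild-type hearts. Both knock-in arrays were higher, by 0.10 on average (95% interval −0.15 to 0.35, limma adjusted p = 0.702), and this probe set is brighter than 99.9% of all. A far dimmer probe set is also annotated to Fabp3, with a mean signal still above that of 76.0% of all probe sets. It read 7.89 and 8.17 in knock-in hearts, against 8.45 and 8.51 in wild-type hearts. It was lower in both knock-in arrays, by −0.45 on the log2 scale (−0.77 to −0.14, limma adjusted p = 0.458), and by −0.31 without knock-in replicate 1. The difference of the dimmer probe set minus that of the main one was −0.55, with no overlap between groups (two-sided exact permutation p = 0.333, the smallest that 2 arrays against 2 can give). Such a comparison with the brightest probe set of the same gene had no overlap in 9 of 15 pairs, among them both Acsl4 pairs at −0.69 and −0.52. The share of such pairs over all genes was not computed, and pairs of one gene share its brightest probe set, so the count is not read as a trait of these genes. The main Fabp3 probe set is, like those of Lpl, near the highest signal in the table, where compression was not tested. Where the dimmer probe set lies on the transcript is not given in the sources used here.

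**Figure D2:**
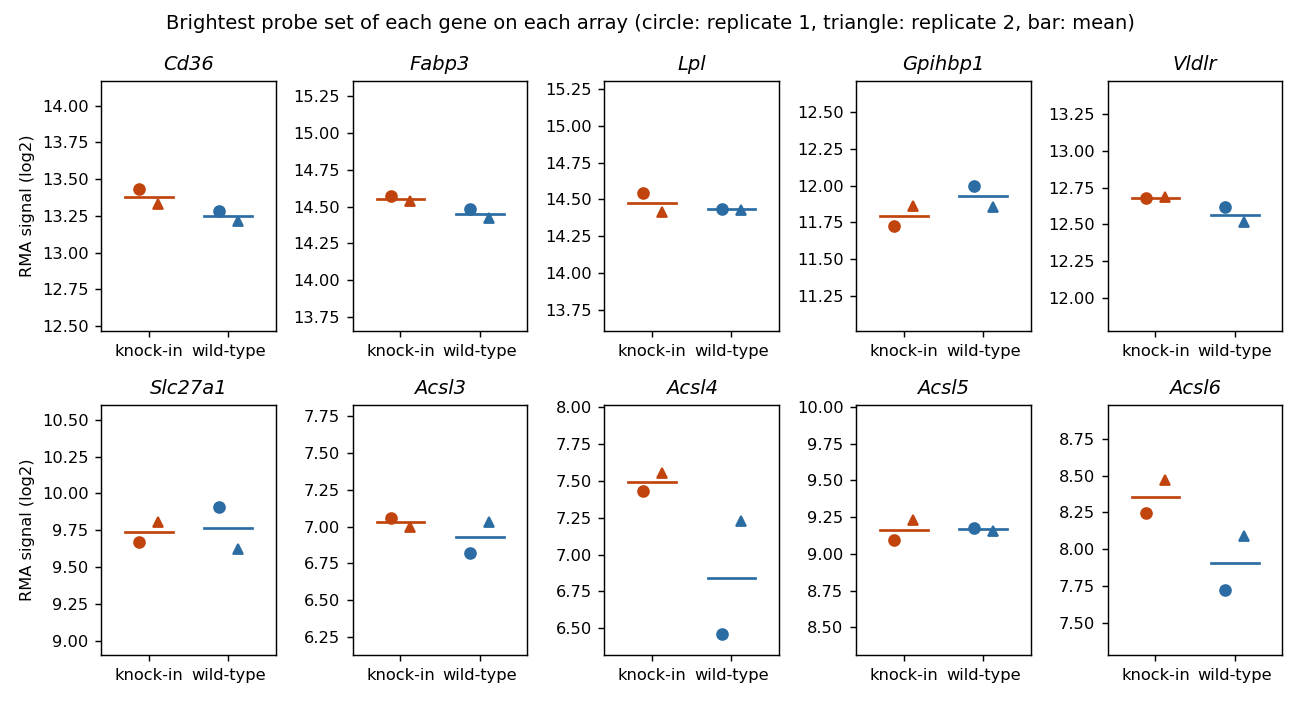
RMA signal (log2, y axis) of the brightest probe set of each of the 10 genes in knock-in (red, left) and wild-type hearts (blue, right). Circles are replicate 1, triangles replicate 2 and bars group means, and all panels span the same height in log2 units. Acsl4 and Acsl6 have the widest gaps, and in both wild-type replicate 1 is the lowest array.

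By brightest probe set, the synthetase genes differed by 0.65 for Acsl4, 0.45 for Acsl6, 0.10 for Acsl3 and −0.00 for Acsl5. Acsl4 encodes an enzyme that prefers arachidonic acid and other polyunsaturated fatty acids and so feeds them into membrane phospholipids. Its brightest probe set read 7.43 and 7.55 in knock-in hearts, against 6.46 and 7.23 in wild-type hearts. Both knock-in arrays were higher, but the wild-type arrays lay far apart, with means of 7.49 ± 0.08 in knock-in and 6.84 ± 0.54 in wild-type hearts (SD, n = 2 each). The difference was 0.65, or 1.57-fold (SE 0.24, 95% interval 0.08 to 1.22, limma adjusted p = 0.458). It was 0.26 without wild-type replicate 1 and 1.03 without wild-type replicate 2. The other Acsl4 probe sets, both dimmer than their array's median probe set, differed by 0.13 (−0.18 to 0.43) and −0.04 (−0.38 to 0.29), and in both the groups overlapped.

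Acsl6 encodes a synthetase known mainly from brain, where it enriches membranes in docosahexaenoic acid, and from skeletal muscle and red cell precursors. The brighter Acsl6 probe set read 8.25 and 8.47 in knock-in hearts, against 7.72 and 8.09 in wild-type hearts. Both knock-in arrays were higher, with means of 8.36 ± 0.16 in knock-in and 7.91 ± 0.26 in wild-type hearts (SD, n = 2 each). The difference was 0.45, or 1.37-fold (SE 0.16, 95% interval 0.07 to 0.83, limma adjusted p = 0.458), and it was 0.27 without wild-type replicate 1. The dimmer Acsl6 probe set read 5.53 and 5.64 in knock-in hearts, against 5.45 and 5.43 in wild-type hearts, a difference of 0.15 (−0.11 to 0.40). It shared the direction with no overlap, and it lay at 0.15 also without wild-type replicate 1.

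Acsl3 encodes a synthetase of the endoplasmic reticulum and lipid droplets. Its brightest probe set read 7.060 and 6.998 in knock-in hearts, against 6.822 and 7.034 in wild-type hearts, and the groups overlapped. The difference was 0.10 (95% interval −0.19 to 0.39, limma adjusted p = 0.739), and −0.0045 without wild-type replicate 1. The other Acsl3 probe sets had means of 4.1 and 3.6, among the dim probe sets of the table, and differed by −0.07 and 0.22. Acsl5, whose synthetase is best known from intestine and liver, read 9.09 and 9.23 in knock-in hearts, against 9.18 and 9.16 in wild-type hearts. The knock-in arrays lay on either side of the wild-type ones, with a difference of −0.00 (95% interval −0.27 to 0.26, limma adjusted p = 0.992).

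**Figure D3:**
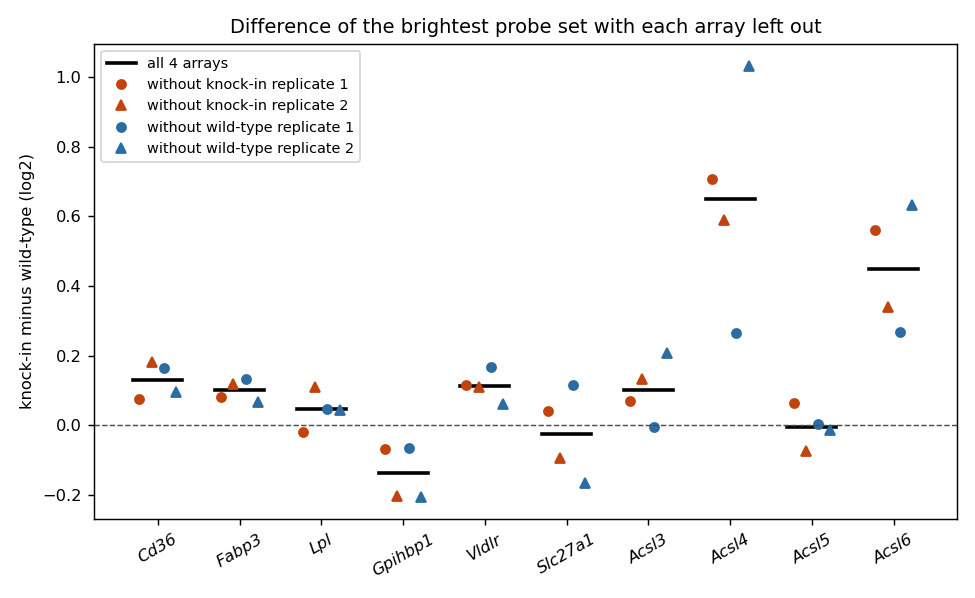
Difference between knock-in and wild-type hearts (log2, y axis) of each gene's brightest probe set with all 4 arrays (black bars) and with 1 array left out (red for a knock-in, blue for a wild-type array). Acsl4 ranges from 0.26 to 1.03 and Acsl6 from 0.27 to 0.63. Cd36, Fabp3, Vldlr and Gpihbp1 keep their sign whichever array is left out, and Lpl, Slc27a1, Acsl3 and Acsl5 do not.

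Other genes of the same pathway, in 4 lists holding 61 entries of which 55 were measured, also had small differences, with a few exceptions. Over all 4 lists the knock-in hearts had 36 genes above the wild-type mean and 19 below it, the median being 0.04, and limma called 0 of them. Unadjusted p-values under 0.05 came from 5 higher genes and 1 lower gene, or 9.09% and 1.82%, against 5.45% and 4.76% of all genes. Of the 5, Fabp1 and Apoc3 are transcripts of liver, whose markers were higher in the knock-in arrays as given with the marker lists. In the uptake and binding list 17 of 22 were higher, with a median of 0.06. Fabp4, the binding protein of capillary endothelium and fat, differed by 0.13, Fabp5 by −0.07, and the transport protein gene Slc27a4 by 0.07. The dimmer Fabp4 probe sets did not share a direction, at 0.16, 0.25 and −0.46. Got2, which encodes a mitochondrial aminotransferase also found at the plasma membrane, differed by 0.01, the caveolin gene Cav1 by 0.04 and the acyl-CoA binding protein gene Dbi by −0.02. The outlying member of this list was Fabp1, the fatty acid binding protein of liver, at 8.85 and 7.51 in knock-in hearts, against 5.29 and 4.95 in wild-type hearts. Its difference was 3.06 (limma adjusted p = 0.235).

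In the list of lipoprotein lipase and lipoprotein handling 8 of 11 were higher, with a median of 0.08. Angptl4, whose product inactivates the lipase, differed by 0.11, with knock-in arrays at 9.79 and 9.53 and wild-type arrays at 9.31 and 9.79, so the groups overlapped. Lmf1, needed for the lipase to fold, differed by 0.08. Apoc3, an apolipoprotein gene of liver that restrains the lipase, read 7.22 and 5.75 in knock-in hearts, against 5.03 and 4.65 in wild-type hearts, a difference of 1.65 (limma adjusted p = 0.458), or 0.91 without knock-in replicate 1. Glmp, which encodes a lysosomal membrane protein, read 9.59 and 9.66 in knock-in hearts, against 9.31 and 9.31 in wild-type hearts, a difference of 0.31 (limma adjusted p = 0.458). Its place in this list was a choice, and a part of Glmp in lipoprotein handling was not tested.

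Of 8 other genes of acyl-CoA activation 5 were lower and 3 higher, the median being −0.04. Acsm3, a medium-chain synthetase gene, read 4.218 and 4.441 in knock-in hearts, against 4.795 and 4.748 in wild-type hearts. It was lower by −0.44 (limma adjusted p = 0.458), at a mean signal above that of only 21.8% of probe sets.

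Of 14 genes that regulate this pathway or the endothelial transport of fatty acids, 8 lay above the wild-type mean and 6 below it (median 0.02). Ppara, the receptor gene that drives fatty acid use in heart, differed by 0.06 and Ppard by −0.11. Other probe sets went the other way, at −0.12 and −0.06 for Ppara and 0.03 for Ppard. Foxo1, a forkhead factor gene, read 9.18 and 9.28 in knock-in hearts, against 8.82 and 8.78 in wild-type hearts. The groups did not overlap, with a difference of 0.43 and 95% interval from 0.17 to 0.69 (limma adjusted p = 0.458). Foxo1 is named because of its unadjusted p, so an interval that leaves out 0 follows from that choice. Its other probe sets differed by 0.32, 0.11 and −0.11. Meox2, whose product with TCF15 turns on Cd36 and Lpl in heart endothelium of mice, read 8.61 and 8.73 in knock-in hearts, against 7.54 and 8.38 in wild-type hearts. Its difference was 0.71 (limma adjusted p = 0.458), and 0.29 without wild-type replicate 1, the array that was also lowest for Acsl4 and Acsl6. The second Meox2 probe set differed by 0.33, and Tcf15 itself by 0.02 with overlapping groups.

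**Figure D4:**
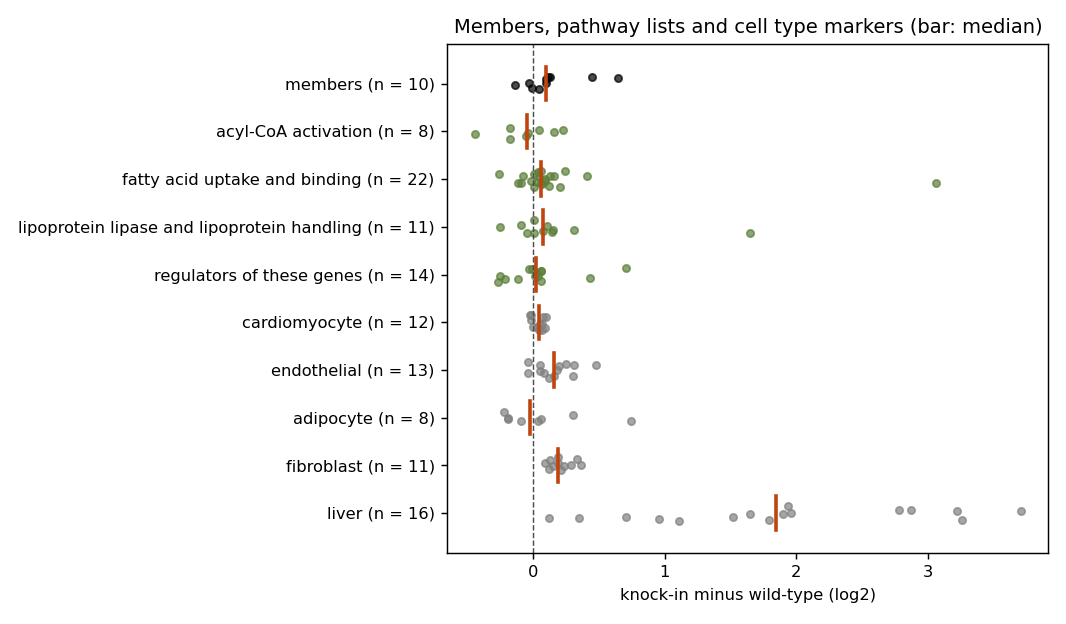
Differences between knock-in and wild-type hearts (log2, x axis) for the 10 members, the genes of the 4 pathway lists and 5 lists of cell type markers, 1 brightest probe set a gene, with red bars at list medians. The members' median is 0.10 and that of cardiomyocyte markers 0.05, whereas the liver markers have a median of 1.85 and the far points of the pathway lists are Fabp1 and Apoc3.

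Markers of other cell types also had differences, by the brightest probe set of each gene, but limma called 0 genes in each of the 11 marker lists. Among all 18193 genes 46.9% were higher in the knock-in hearts. Of 16 liver markers 16 were higher, with a median of 1.85, and their summed linear signal was 7987 and 3057 in knock-in hearts, against 1421 and 929 in wild-type hearts. Apoc3 is itself one of these markers and Fabp1 is a gene of the same tissue. Slc27a2 and Slc27a5, transporters typical of liver, differed by 0.41 and 0.09, with overlapping groups in both (limma adjusted p = 0.491 and 0.867). The endothelial list lay higher in 11 of its 13 genes (median 0.16), with sums of 18592 and 20667 in knock-in hearts, against 18514 and 16823 in wild-type hearts. The fibroblast list lay higher in 11 of its 11 genes (median 0.19), with sums of 29148 and 32146 in knock-in hearts, against 27693 and 26864 in wild-type hearts. Adipocyte markers were split, 4 higher and 4 lower, and Adipoq, which defines fat cells, read 5.13 and 6.89 in knock-in hearts, against 5.23 and 5.30 in wild-type hearts. Cardiomyocyte markers had 8 of 12 higher, a median of 0.05 and sums of 243260 and 231050 in knock-in hearts, against 227470 and 232000 in wild-type hearts.

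Of the lists for other cells, 7 of 9 macrophage, 6 of 9 smooth muscle and pericyte, and 4 of 7 red cell and platelet markers were higher, with medians of 0.10, 0.06 and 0.02. Lymphocyte markers were lower in 6 of 6, neuron markers in 7 of 8 and skeletal muscle markers in 7 of 10, with medians of −0.26, −0.13 and −0.14. The 3′ minus 5′ signal of the Gapdh control, a sign of RNA quality, was 0.54 and 0.76 in knock-in hearts, against 0.62 and 0.61 in wild-type hearts. The part of these cell types and of RNA quality in the members' values was not tested.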

How the data were processed

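Per the submitters' processing notes, the authors made the deposited log2 values with RMA in Affymetrix Expression Console, 1 value per probe set and array; RMA corrects background, normalises arrays to each other and summarises probes. The labels state that both wild-type scans, which were deposited under other samples too, were here processed together with these knock-in arrays alone. Of 45101 probe sets, 64 controls were left out. Names came from the array's annotation: 34945 probe sets had 1 symbol, 932 several (not named) and 9160 none, and 18032 of 18193 genes matched GRCm38.p6 by gene ID. Differences across all 45037 probe sets were tested by limma 3.58.1 under R 4.3.3 (lmFit and eBayes without covariates; 2 residual and 4.54 prior degrees of freedom) with Benjamini-Hochberg adjustment. The fit was tested on simulated data. The number of arrays limits precision: the median standard error was 0.121. Each gene is represented by its brightest probe set over the 4 arrays.

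The members, lists and tests were chosen with earlier results of these data known. By rule the text names all members, 12 pathway genes and any pathway gene at an unadjusted p under 0.05. Of the 12, Acsl1 and Slc27a6 are among the 6 pathway entries with no probe set of 1 symbol, which are not analysed here. Slc27a2, Slc27a5 and Tcf15 are named outside that rule. Tables and plots used Python 3.11.15, pandas 2.3.3 and matplotlib 3.10.9. Alternatives changed how the variance was moderated, which probe sets entered (dim ones or those with _x, _s or _a suffixes left out), the normalisation, the weighting of arrays, blocking on replicate number and the averaging of probe sets, and left out each array in turn.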

Additional observations from a re-analysis of the deposited data

How the results depend on the processing

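None of the 14 alternatives called a member probe set, and the smallest adjusted p among them was 0.143, without wild-type replicate 2. The count over all probe sets, 3 here, became 11 with arrays shifted to one median and 7 when probe sets were averaged by gene, and 0 to 2 with 1 array left out. The members' median of 0.10 stayed above 0: it was 0.16 with arrays shifted to one median, which raised the median of all genes to 0.05, then 0.0753 after quantile normalisation, 0.0601 after cyclic loess, 0.0701 without probe sets named _x_at, _s_at or _a_at, 0.0677 with the mean of probe sets, and 0.0646 to 0.125 with 1 array left out. Signs of small differences turned. With the mean of probe sets Fabp3 lay at −0.18, Vldlr at −0.0048 and Slc27a1 at 0.16. With arrays shifted to one median Slc27a1 lay at 0.0346 and Acsl5 at 0.0559. Without the named probe sets Acsl3 lay at −0.0673. With 1 array left out Acsl3 ranged from −0.0045 to 0.21, Acsl5 from −0.0733 to 0.0642, Lpl from −0.0186 to 0.11 and Slc27a1 from −0.17 to 0.12. Acsl4 and Acsl6 stayed above 0 in all 14, at 0.24 to 1.03 and 0.27 to 0.63. Settings for variance moderation, dim probe sets, array weights and the replicate block left both differences, and the members' median, unchanged. Leaving out suffixed probe sets also left Acsl4 and Acsl6 unchanged. Their signs could not turn in any of these settings. The cause of the shifts in the other settings was not tested. Equal replicate numbers deviated together only weakly (correlation 0.0848 over probe sets, the same for both numbers by construction), so they are not taken as pairs; with the replicate block 4 probe sets in all and 0 member probe sets were called. With 2 arrays a group, differences of the size seen in most members lie within the error of the fit.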
